A study of Homo sapiens with 24 samples.

Results

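The enzymes that place new DNA methylation and those that remove it were followed in RNA-seq libraries of HCT116, a human colorectal carcinoma cell line, in which the maintenance machinery can be degraded on demand. The genes described are the 6 whose symbols are DNMT3A, DNMT3B, TET1, TET2, TET3 and TDG, chosen by symbol among the 58735 genes of each count table, and all 6 had counts. The 24 libraries form 8 groups of 3, from WT cells, cells with 1 tagged protein (UHRF1-AID or DNMT1-AID) and cells with both (UHRF1-AID/DNMT1-AID, the compound line), each before treatment (day 0) and after 4 days of auxin (day 4). All 4 lines descend from HCT116 cells with a doxycycline-inducible OsTIR1, the plant receptor that directs AID-tagged proteins to degradation when auxin is present. WT cells carry no tagged protein. In UHRF1-AID cells the auxin-inducible degron (AID) with mClover sits at the end of endogenous UHRF1, in DNMT1-AID cells the degron with mRuby2 sits at the start of endogenous DNMT1, and the compound line carries both. Day 4 cells of every line, WT included, received 2 µg/mL doxycycline with 20 µM auxinole, an inhibitor of OsTIR1, for a day, and then 2 µg/mL doxycycline with 500 µM auxin. According to the methods the 3 replicates of each AID line are 3 different clones, while the labels do not say which clone is which library or whether the WT libraries came from separate cultures, so p-values measure the spread between these libraries.

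DNMT3A and DNMT3B transfer methyl groups to unmethylated CpG sites, whereas UHRF1 brings DNMT1 to newly replicated DNA to copy the existing pattern. TET1, TET2 and TET3 are dioxygenases that oxidise methylcytosine stepwise to its hydroxymethyl, formyl and carboxyl forms. TDG is a DNA glycosylase that cuts out the formyl and carboxyl forms, after which base excision repair restores an unmodified cytosine. The comparisons ask whether the mRNAs of these opposing enzymes shifted when UHRF1, DNMT1 or both were depleted.

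On hg38, DNMT3A (ENSG00000119772) lies on the minus strand at chr2:25227855-25342590 and DNMT3B (ENSG00000088305) on the plus strand at chr20:32762385-32809356. TET1 (ENSG00000138336) spans chr10:68560656-68694482, TET2 (ENSG00000168769) chr4:105145875-105279816 and TET3 (ENSG00000187605) chr2:73986404-74108176, all on the plus strand. TDG (ENSG00000139372) spans chr12:103965804-103988874 on the plus strand. Counts were summed over all exons of a gene, and the summed exon length was 12020 bases for DNMT3A, 4630 for DNMT3B, 9288 for TET1, 16474 for TET2, 12271 for TET3 and 4903 for TDG. The exons of DNMT3A, TET1, TET2 and TET3 together were longer than those of 96.5%, 92.5%, 98.8% and 96.8% of the genes with a count. DNMT3B and TDG were nearer to the middle, with 70.4% and 72.4% of those genes shorter. Of the genes inside or copied from the 6, the TET1-embedded pseudogene COX20P1 had the most reads, a mean of 4.83 counts per library, and the TDG pseudogene TDGP1 had 0.25.

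CpG sites, the substrate of these enzymes, are unevenly spread over the genes' own start regions. The RefSeq transcription starts used here number 15 for the 6 genes on GRCh38.p14, and the set may be incomplete. The 250 bases before each start held between 3 and 37 CpG sites, against a median of 11 over 35116 such windows of all genes. Given here, in the direction of transcription and with every CpG in capitals, are the windows with the fewest and the most CpG sites and a TET2 window in between, none of which overlaps an annotated exon.
DNMT3B chr20:32779602-32779851 (plus strand): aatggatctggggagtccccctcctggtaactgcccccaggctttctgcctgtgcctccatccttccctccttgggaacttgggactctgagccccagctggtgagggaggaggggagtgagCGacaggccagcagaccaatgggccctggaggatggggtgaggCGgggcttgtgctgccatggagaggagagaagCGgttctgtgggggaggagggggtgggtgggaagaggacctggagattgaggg
TET2 chr4:105145625-105145874 (plus strand): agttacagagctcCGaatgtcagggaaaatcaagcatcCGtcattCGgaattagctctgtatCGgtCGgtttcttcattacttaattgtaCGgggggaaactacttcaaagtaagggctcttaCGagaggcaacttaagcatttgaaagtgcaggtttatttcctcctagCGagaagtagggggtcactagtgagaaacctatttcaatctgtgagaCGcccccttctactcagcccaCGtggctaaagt
TET3 chr2:73984660-73984909 (plus strand): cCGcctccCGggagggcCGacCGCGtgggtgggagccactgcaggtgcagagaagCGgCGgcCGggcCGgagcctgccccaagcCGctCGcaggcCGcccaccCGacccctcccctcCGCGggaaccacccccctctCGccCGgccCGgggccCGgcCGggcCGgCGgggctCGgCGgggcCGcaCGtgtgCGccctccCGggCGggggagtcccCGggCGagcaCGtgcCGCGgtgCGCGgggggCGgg
The DNMT3B window precedes a start within the gene and held 3 CpG sites, with 22.9% of all windows holding fewer. It is the 1 DNMT3B window of the table, so the bases before the gene's first exon were not analysed here. The TET2 window given, just before the gene's first exon, held 10, with 47.8% of windows holding fewer. A second TET2 window, within an exon, held 34, with 93.2% of windows holding fewer. The TET3 window precedes a start upstream of the gene's first exon in the count tables and held 37, with 96% of windows holding fewer. Methylation at these sites was not measured in the libraries.

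The libraries held between 15824804 and 25073821 counts on genes. The epithelial markers EPCAM, KRT8, KRT18, KRT19, CDH1, CDH17 and VIL1 summed to between 3934 and 8224 CPM (counts relative to library size, scaled by TMM over all 24 libraries), and the 7 markers of blood, fibroblasts and endothelium to between 1.76 and 21.9 CPM, with none of the 14 at 0 in every library. By their file headers, 15 libraries were aligned in one folder (all day 0 libraries and UHRF1-AID day 4) and 9 in another (day 4 of the other 3 lines), and spike-in counts occur in those 9 alone, so folder and day cannot be told apart in WT, DNMT1-AID and compound cells. The libraries also differed in how expression tracked exon length across 12968 genes, a Spearman rho here called the length trend. At day 0 it was between -0.20 and -0.15 in WT replicate 3 and DNMT1-AID replicates 1 and 2, and between 0.052 and 0.31 in the other 9 libraries. UHRF1 and DNMT1 mRNA themselves fell between day 0 and day 4 in WT cells, with log2 fold changes of -1.54 and -2.20 (adjusted p = 0.011 and 0.014), so their mRNA does not report the depletion, which acts on the protein.

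To compare the genes with one another, CPM was divided by exon length in kilobases. TDG had the highest level in all 8 groups, with group means between 4.75 and 7.45 CPM per kb, and DNMT3B was second in all 8, with means between 1.57 and 3.59. The ranges of the libraries of TDG and DNMT3B did not overlap in any group. DNMT3A, TET3 and TET2 lay well below, with group means of 0.318 to 0.720, 0.290 to 0.807 and 0.233 to 0.458 CPM per kb. TET3 ranked above DNMT3A in all 4 lines at day 0 and in DNMT1-AID cells at day 4, but the ranges of these neighbours were separate only in compound cells at day 0. In UHRF1-AID cells at day 4 TET3 ranked below TET2, with ranges that still overlapped. TET1 was lowest in every group, with means between 0.032 and 0.104 CPM per kb and 1 to 31 reads per library. DNMT3L, the catalytically inactive partner of the de novo enzymes, had 0 counts in all 24 libraries, which allows up to 3 counts per library, or 0.19 CPM in the shallowest, for counting error only.

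**Figure D1:**
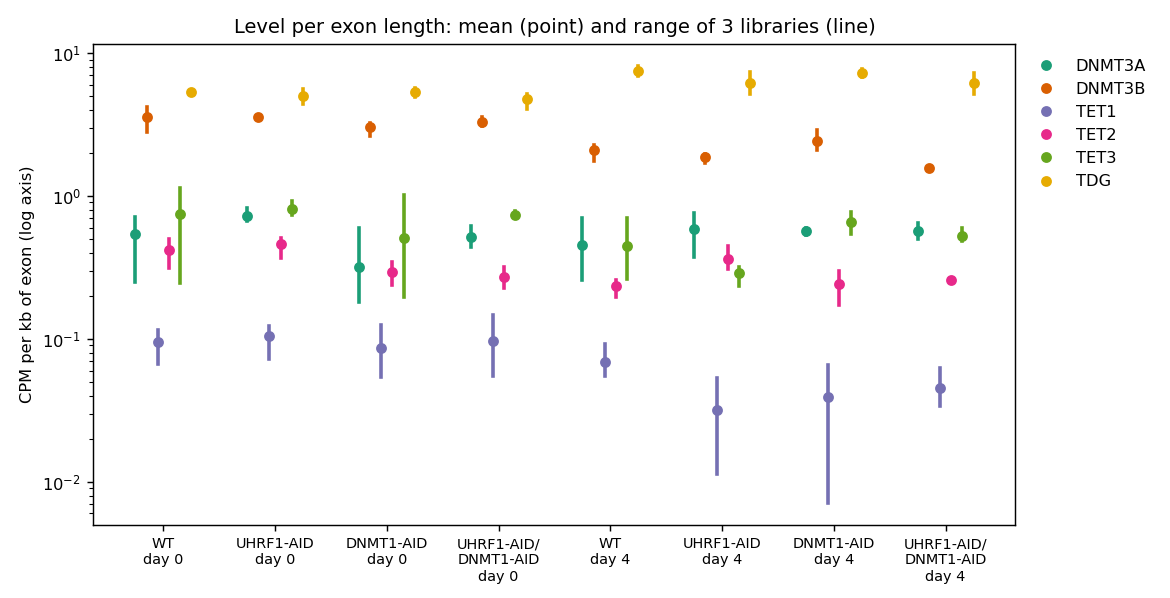
Level per exon length in CPM per kb (log axis) for the 6 genes in each of the 8 groups, with points at the mean and lines over the range of 3 libraries. TDG and DNMT3B stand above the other genes in every group and TET1 stands lowest, while the mean of TET3 sits below that of TET2 only in UHRF1-AID cells at day 4.

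Differences were tested with edgeR's quasi-likelihood test over all genes that passed its filter, and a gene is called changed at a Benjamini-Hochberg adjusted p under 0.05. Between day 0 and day 4, 3 of the 6 genes changed in WT cells (2 lower and 1 higher), where 35.6% of all genes tested changed. In UHRF1-AID cells 3 of 6 were lower, against 49.4% of all genes. In DNMT1-AID cells 1 of 6 was higher, against 40.4%, and in compound cells 2 were lower and 1 was higher, against 67.8%. These shares are of the same order as the counts of members, so the counts alone say nothing particular about the 6 genes. The median log2 fold change of the 6 genes was -0.64 in WT cells, -0.60 in UHRF1-AID cells, -0.28 in compound cells and 0.05 in DNMT1-AID cells, and that of all genes lay between -0.03 and 0.02. Over all genes tested, the Spearman rho of log2 fold change with exon length was -0.15, -0.086, -0.15 and -0.0032 in the same order. DNMT3A, TET1, TET2 and TET3 have long exons, and the part of exon length in these medians was not tested.

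**Figure D2:**
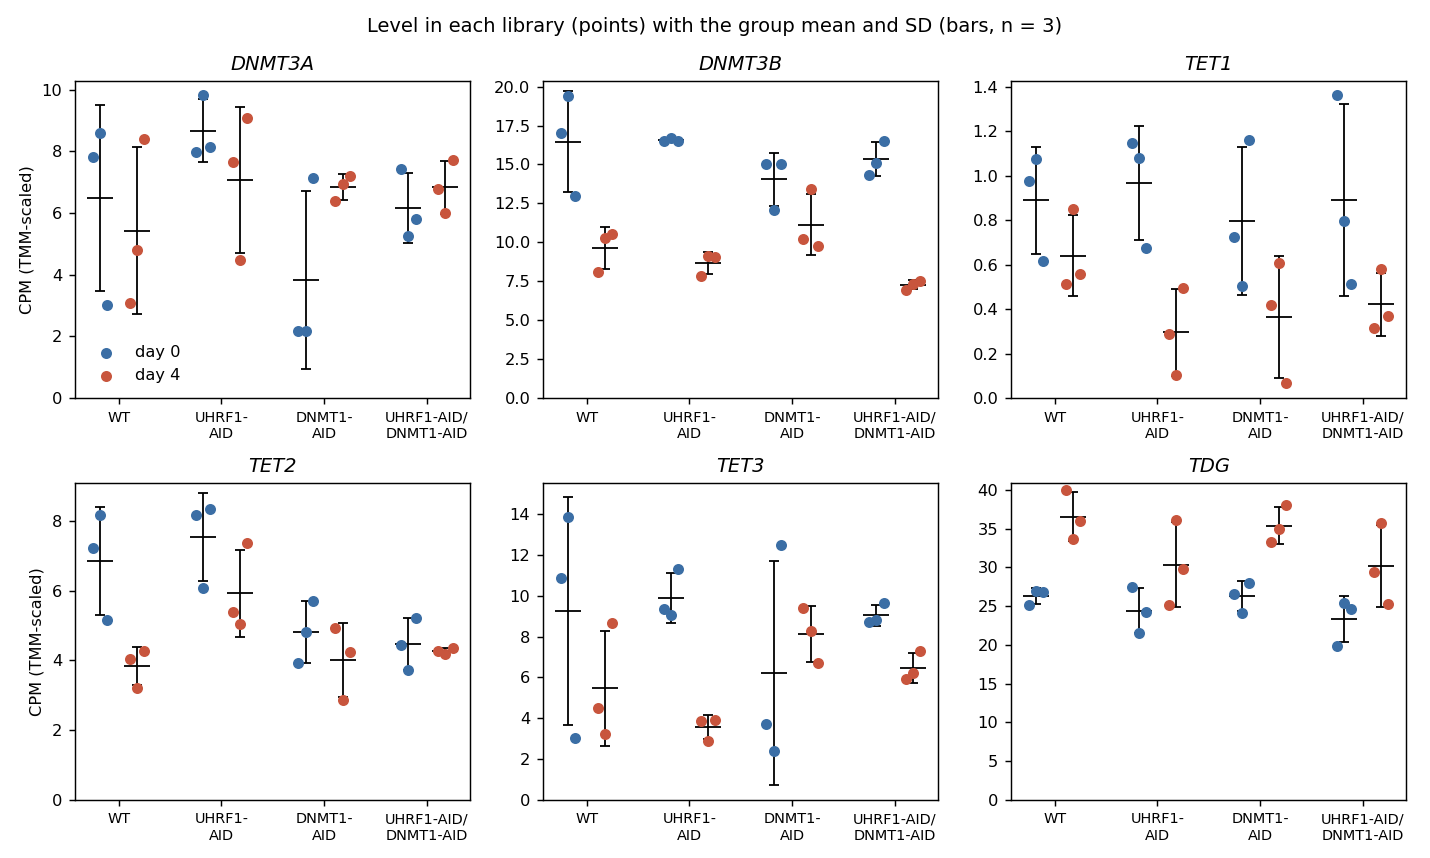
TMM-scaled CPM of each gene in each of the 24 libraries, day 0 in blue and day 4 in red, with bars at the group mean and its SD (n = 3). DNMT3B at day 4 lies below every day 0 library of its line in WT, UHRF1-AID and compound cells, and DNMT3A and TET3 spread widely within WT day 0, DNMT1-AID day 0 and WT day 4.

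Among the de novo methyltransferases, DNMT3B fell between untreated day 0 and day 4 of doxycycline and auxin in 3 of the 4 lines. In WT and compound cells these days were also aligned in different folders. In WT cells DNMT3B was at 17.0, 19.4 and 12.99 CPM at day 0 and at 8.10, 10.2 and 10.6 CPM at day 4. In UHRF1-AID cells it went from 16.5, 16.7 and 16.5 CPM to 7.83, 9.15 and 9.04 CPM, and in compound cells from 14.4, 15.1 and 16.5 CPM to 6.96, 7.29 and 7.53 CPM. In these lines no day 4 library reached its lowest day 0 library, as 49%, 60.2% and 71.6% of all genes tested had groups that did not overlap in either direction, and the compound line had the lowest day 4 values of all groups. The log2 fold change was -0.79 in WT cells (SE 0.197, adjusted p = 0.014), -0.90 in UHRF1-AID cells (SE 0.152, adjusted p = 0.0011) and -1.09 in compound cells (SE 0.132, adjusted p = 9.7e-07). In DNMT1-AID cells the libraries were at 15.0, 12.1 and 15.1 CPM and then at 10.2, 13.4 and 9.79 CPM, so that the groups overlapped, and the log2 fold change of -0.34 (95% interval -0.76 to 0.08) did not pass (adjusted p = 0.181). The fall in UHRF1-AID and compound cells passed in all 13 alternative fits of each, that without any 1 library included. In WT cells it missed without day 0 replicate 2 and without day 4 replicate 1, with log2 fold changes between -0.67 and -0.66 and adjusted p of 0.058 and 0.057.

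Proliferation genes moved in the same direction as DNMT3B. Of 10 such genes (MKI67, the replicative helicase subunits MCM2 to MCM7, the sliding clamp PCNA, and RRM2 and TYMS of nucleotide synthesis), 6 fell in WT cells, 9 each in UHRF1-AID and DNMT1-AID cells and 10 in compound cells between day 0 and day 4, and none rose, where 35.6%, 49.4%, 40.4% and 67.8% of all genes tested changed in either direction. Their summed level ranged over 2191 to 2839 CPM in the day 0 libraries, over 1396 to 1591 CPM in WT day 4, 748 to 1269 CPM in UHRF1-AID day 4, 1128 to 1469 CPM in DNMT1-AID day 4 and 1000 to 1084 CPM in compound day 4 libraries. Their part in the change of DNMT3B was not tested, and in bulk RNA fewer dividing cells and less mRNA per cell cannot be told apart. Across the 24 libraries the genes whose log2(CPM + 1) was most like that of DNMT3B were DDX11 (r = 0.95), a helicase of sister chromatid cohesion, HASPIN (r = 0.94), a mitotic histone kinase, and POLD3 (r = 0.94), a DNA polymerase delta subunit. Libraries of one group share their line and day, so these values describe the pattern.

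DNMT3A behaved differently: it passed in none of the 14 comparisons. Its levels were 7.82, 8.59 and 3.02 CPM in WT day 0, 7.99, 9.83 and 8.15 CPM in UHRF1-AID day 0, 2.17, 2.16 and 7.14 CPM in DNMT1-AID day 0 and 7.42, 5.25 and 5.82 CPM in compound day 0 libraries. At day 4 they were 3.09, 4.79 and 8.40 CPM in WT, 7.64, 4.47 and 9.08 CPM in UHRF1-AID, 6.37, 6.94 and 7.21 CPM in DNMT1-AID and 6.77, 6.003 and 7.72 CPM in compound cells. The 3 low values at day 0 belong to the 3 libraries with a negative length trend, which held 2.16 to 3.02 CPM, against 5.25 to 9.83 CPM in the other 9 day 0 libraries. Day 4 against day 0 gave log2 fold changes of -0.28 in WT (95% interval -1.45 to 0.90), -0.25 in UHRF1-AID (-0.83 to 0.33), 0.83 in DNMT1-AID (-0.22 to 1.87) and 0.14 in compound cells (-0.24 to 0.52). In DNMT1-AID cells the value rested on single libraries: without day 0 replicate 3 it was 1.65 (adjusted p = 6.7e-05), and without day 0 replicates 1 and 2, which leaves 1 day 0 library assumed to vary like the rest, it was -0.07. With no filter on low counts it also passed (adjusted p = 0.014).

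Among the TET genes, TET3 fell in UHRF1-AID and compound cells. In UHRF1-AID cells it was at 9.34, 9.06 and 11.3 CPM at day 0 and at 3.87, 2.89 and 3.93 CPM at day 4. The log2 fold change was -1.43 (SE 0.206, adjusted p = 0.00047), a 2.70-fold fall that passed in all 13 alternative fits, between -1.52 and -1.27. The length trend was 0.306, 0.202 and 0.252 in the day 0 libraries and 0.197, -0.133 and 0.159 in the day 4 libraries. It was thus lower in every day 4 library than in any day 0 library. With offsets for it the log2 fold change was -1.27 (adjusted p = 0.00033), the smallest fall among the alternative fits. All 6 libraries of this comparison were aligned in one folder. In compound cells TET3 went from 8.69, 8.82 and 9.63 CPM to 5.90, 6.20 and 7.29 CPM, without overlap, as for 71.6% of all genes tested, with a log2 fold change of -0.49 (SE 0.155, adjusted p = 0.0089). The length trend was between 0.052 and 0.10 in the 3 day 0 libraries and between -0.18 and -0.15 in the 3 day 4 libraries of that line, and with offsets for it the value was -0.29 (adjusted p = 0.101). In a fit of all 24 libraries it was -0.49 (adjusted p = 0.428).

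In WT and DNMT1-AID cells the day effect of TET3 could not be resolved. The libraries were at 10.9, 13.9 and 3.02 CPM in WT day 0 and at 3.73, 2.41 and 12.5 CPM in DNMT1-AID day 0. The 3 low values are again those of the libraries with a negative length trend, which held 2.41 to 3.73 CPM against 8.69 to 13.9 CPM in the other 9 day 0 libraries. At day 4 TET3 was at 4.50, 3.21 and 8.64 CPM in WT and at 9.41, 8.28 and 6.68 CPM in DNMT1-AID cells. The log2 fold change was -0.78 in WT (95% interval -2.32 to 0.75) and 0.38 in DNMT1-AID cells (-1.07 to 1.82). In DNMT1-AID cells it was 1.398 without day 0 replicate 3 (adjusted p = 0.00044). Without day 0 replicates 1 and 2, which leaves 1 day 0 library and so no spread at day 0, it was -0.63.

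At day 4, TET3 was lower in UHRF1-AID than in DNMT1-AID cells, by 1.18 on the log2 scale (2.27-fold, SE 0.231, adjusted p = 0.011). It was the 1 member of the 5 tested that changed in this comparison, where 13.9% of all genes tested changed. The 3 UHRF1-AID libraries, at 2.89 to 3.93 CPM, all lay below the 3 DNMT1-AID libraries, at 6.68 to 9.41 CPM, although 36.5% of all genes tested had groups that did not overlap. These day 4 groups were aligned in different folders, and the length trend was 0.20, -0.13 and 0.16 against -0.057, -0.075 and -0.15. With offsets for the trend the log2 fold change of TET3 was -1.28 (adjusted p = 0.005). It missed narrowly without DNMT1-AID day 4 replicate 1 (adjusted p = 0.053) or replicate 2 (adjusted p = 0.0501), and in a fit of all 24 libraries (adjusted p = 0.111). At day 0 no difference between UHRF1-AID and DNMT1-AID cells was tested, and the difference between their day effects was not tested either.

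The genes most like TET3 over the 24 libraries were KMT2B, a histone methyltransferase (r = 0.96), EP400, a chromatin remodeller (r = 0.95), and GSE1 (r = 0.95). Their summed exon lengths were 10279, 18705 and 13387 bases. The 3 genes most like DNMT3A, WWC1, RAPGEF2 and ZC3H7B (r = 0.94, 0.92 and 0.92), had exons of 10076, 13275 and 10525 bases. Lengths were more mixed for the genes most like the other members. They were 9000, 11145 and 5582 bases for TET2 (PTPRK, MAU2 and EPC2) and 4080, 6679 and 8182 for TET1 (PRR11, ZNF219 and NUP210). For DNMT3B (DDX11, HASPIN and POLD3) they were 8374, 2797 and 5508 bases, and for TDG (B3GNT5, ID2 and UBA6) 8140, 2205 and 11432. The length trend is a property that libraries share, and its part in these likenesses was not tested. Over the 24 libraries the r of log2(CPM + 1) with the length trend was highest for TET2, at 0.77. It was 0.67 for DNMT3A, 0.61 for TET3, 0.61 for DNMT3B, 0.57 for TET1 and -0.51 for TDG. Between the members themselves r was highest for DNMT3B with TET1 (0.70) and for DNMT3A with TET3 (0.68), and most negative for DNMT3B with TDG (-0.54).

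TET2 fell in WT cells, from 7.23, 8.18 and 5.15 CPM at day 0 to 4.05, 3.21 and 4.26 CPM at day 4. The groups did not overlap, as for 49% of all genes tested, and the log2 fold change was -0.86 (SE 0.232, adjusted p = 0.020). It passed in 2 of the 6 fits without 1 library, those without day 0 replicate 3 or day 4 replicate 3, and missed without day 0 replicate 1 or 2 or day 4 replicate 1 or 2, at adjusted p between 0.055 and 0.085. With offsets for the length trend it was -0.50 (adjusted p = 0.061). In UHRF1-AID cells TET2 was at 8.19, 6.07 and 8.35 CPM and then at 5.39, 5.05 and 7.37 CPM, with a log2 fold change of -0.31 (95% interval -0.81 to 0.19). In DNMT1-AID cells the libraries went from 3.93, 4.82 and 5.70 CPM to 4.94, 2.86 and 4.23 CPM, and in compound cells from 4.43, 3.74 and 5.22 CPM to 4.26, 4.196 and 4.35 CPM. Both pairs of groups overlapped, with log2 fold changes of -0.27 (-0.88 to 0.34) and -0.07 (-0.50 to 0.35). The genes most like TET2 were PTPRK (r = 0.90), MAU2 (r = 0.89) and EPC2 (r = 0.88).

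TET1 was near the limit of these libraries, with 17 to 23 reads per library in UHRF1-AID day 0 and 6, 2 and 11 reads in UHRF1-AID day 4. As CPM these were 1.15, 1.08 and 0.673 against 0.286, 0.105 and 0.497, and the groups did not overlap, as for 60.2% of all genes tested. The log2 fold change was -1.61 (SE 0.517, adjusted p = 0.027). It missed with DESeq2 (-1.66, adjusted p = 0.0502) and without day 0 replicate 1 or 2 or day 4 replicate 1 or 2, at adjusted p between 0.059 and 0.086. The other lines gave -0.49 in WT (95% interval -1.38 to 0.39), -1.10 in DNMT1-AID (-2.48 to 0.28) and -1.08 in compound cells (-2.14 to -0.03, adjusted p = 0.065), where it passed without day 0 replicate 3 (-1.36, adjusted p = 0.029). With so few reads TET1 was filtered out of the comparisons between lines at day 4. The genes most like it were PRR11 (r = 0.83), ZNF219 (r = 0.82) and NUP210 (r = 0.81).

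TDG, the glycosylase, was the 1 gene of the 6 that rose. It went from 25.1, 27.0 and 26.9 CPM to 39.9, 33.7 and 36.0 CPM in WT cells, and from 26.6, 24.1 and 28.0 CPM to 33.3, 34.9 and 38.0 CPM in DNMT1-AID cells. In both lines every day 4 library was above every day 0 library, as for 49% and 53.9% of all genes tested in either direction. The log2 fold change was 0.45 in WT (SE 0.117, adjusted p = 0.017) and 0.43 in DNMT1-AID cells (SE 0.131, adjusted p = 0.025). In compound cells TDG went from 19.9, 25.4 and 24.6 CPM to 29.4, 35.8 and 25.3 CPM, with a log2 fold change of 0.36 (SE 0.128, adjusted p = 0.021) although the groups overlapped. In UHRF1-AID cells, at 27.4, 21.6 and 24.2 CPM and then at 25.2, 36.1 and 29.7 CPM, the value was close at 0.35 (95% interval -0.03 to 0.73) but did not pass (adjusted p = 0.110), and it did so without day 4 replicate 1 (0.46, adjusted p = 0.043). In WT, DNMT1-AID and compound cells, where TDG passed, day and alignment folder cannot be told apart. The UHRF1-AID libraries were all aligned in one folder.

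The calls for TDG rested on few libraries. In WT cells TDG missed without day 0 replicate 1 (adjusted p = 0.074) and without day 4 replicate 1 (adjusted p = 0.072). In DNMT1-AID cells it passed only without day 0 replicate 3 among the 6 fits that left out 1 library, the other 5 giving adjusted p between 0.053 and 0.10. In compound cells it missed without day 0 replicate 1 or day 4 replicate 1 or 2, at adjusted p between 0.052 and 0.177. Over these lines and all alternative fits the log2 fold change of TDG stayed between 0.20 and 0.51. The genes most like TDG were B3GNT5 (r = 0.86), ID2 (r = 0.86) and UBA6 (r = 0.85).

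Depletion was then set against WT cells of the same day. At day 4 none of the 5 genes tested (TET1 was filtered out) changed in UHRF1-AID, DNMT1-AID or compound cells, where 17.4%, 7.95% and 38.2% of all genes tested changed. By an unadjusted p under 0.05 the numbers were 1, 0 and 1 of 5, and DESeq2 called 0 in each. UHRF1-AID day 4 was aligned in one folder and WT day 4 in the other, so line and folder cannot be told apart in that comparison. The 1 in UHRF1-AID cells was TET2, where all 3 libraries (5.05 to 7.37 CPM) were above the 3 WT libraries (3.21 to 4.26 CPM), with a log2 fold change of 0.66 (95% interval 0.12 to 1.21, adjusted p = 0.088). It passed in the fit of all 24 libraries (0.63, adjusted p = 0.045), and with offsets for the length trend it was 0.44 (adjusted p = 0.217). The 1 in compound cells was DNMT3B, where all 3 libraries (6.96 to 7.53 CPM) were below the 3 WT libraries (8.10 to 10.6 CPM), with a log2 fold change of -0.40 (-0.77 to -0.03, adjusted p = 0.079), or -0.51 without WT replicate 1 (adjusted p = 0.035). Groups that do not overlap were found for 37.7% and 50.2% of all genes tested in these comparisons.

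For the other genes the intervals against WT at day 4 were as follows. DNMT3B differed by -0.12 (-0.54 to 0.31) in UHRF1-AID and 0.21 (-0.18 to 0.61) in DNMT1-AID cells, so that neither interval reached a fall of 1 on the log2 scale. TDG differed by -0.23 (-0.59 to 0.12), -0.04 (-0.29 to 0.21) and -0.27 (-0.55 to 0.002) in UHRF1-AID, DNMT1-AID and compound cells, the narrowest intervals among the 5 genes, and in compound cells it passed without compound replicate 2 (-0.42, adjusted p = 0.034). TET3 differed by -0.58 (-1.38 to 0.22), 0.58 (-0.15 to 1.31) and 0.25 (-0.42 to 0.92), and DNMT3A by 0.41 (-0.47 to 1.30), 0.34 (-0.32 to 1.00) and 0.34 (-0.31 to 0.99). WT replicate 3, with 8.40 CPM of DNMT3A and 8.64 CPM of TET3, stood above WT replicates 1 and 2. Without it DNMT3A and TET3 passed as higher in DNMT1-AID cells (0.81 and 1.10, adjusted p = 0.026 and 0.0028) and in compound cells (0.78 and 0.74, adjusted p = 0.0098 and 0.013). The length trend of the WT day 4 libraries was -0.21, -0.10 and -0.0037, and its part in this was not tested.

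The difference between the day effect of a line and that of WT, in a fit of 12 libraries, passed for none of the 6 genes in any line. For UHRF1-AID cells it sets a day effect within one folder against one between folders. Of all genes tested, 3.62%, 0.153% and 15.3% passed for UHRF1-AID, DNMT1-AID and compound cells. At an unadjusted p under 0.05 the numbers of members were 0, 0 and 1, and DESeq2 called 0. That gene was TET2 in compound cells, whose day effect exceeded that of WT by 0.74 on the log2 scale (95% interval 0.09 to 1.39, adjusted p = 0.115), and by 0.93 without WT day 0 replicate 3 (adjusted p = 0.023). For TET3 the difference was -0.68 in UHRF1-AID cells (-2.18 to 0.81), so that its fall there was not shown to differ from WT. In DNMT1-AID cells the difference went the other way, at 1.16 (-1.03 to 3.35, adjusted p = 0.606), and it passed with no filter on low counts (adjusted p = 0.020). In the same line the difference for DNMT3A was 1.10 (-0.58 to 2.79), with an adjusted p of 0.054 with no filter. For DNMT3B the difference was -0.14 (-0.67 to 0.39), 0.46 (-0.12 to 1.04) and -0.34 (-0.83 to 0.16) in UHRF1-AID, DNMT1-AID and compound cells. For TDG the 3 differences lay between -0.15 and -0.02.

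**Figure D3:**
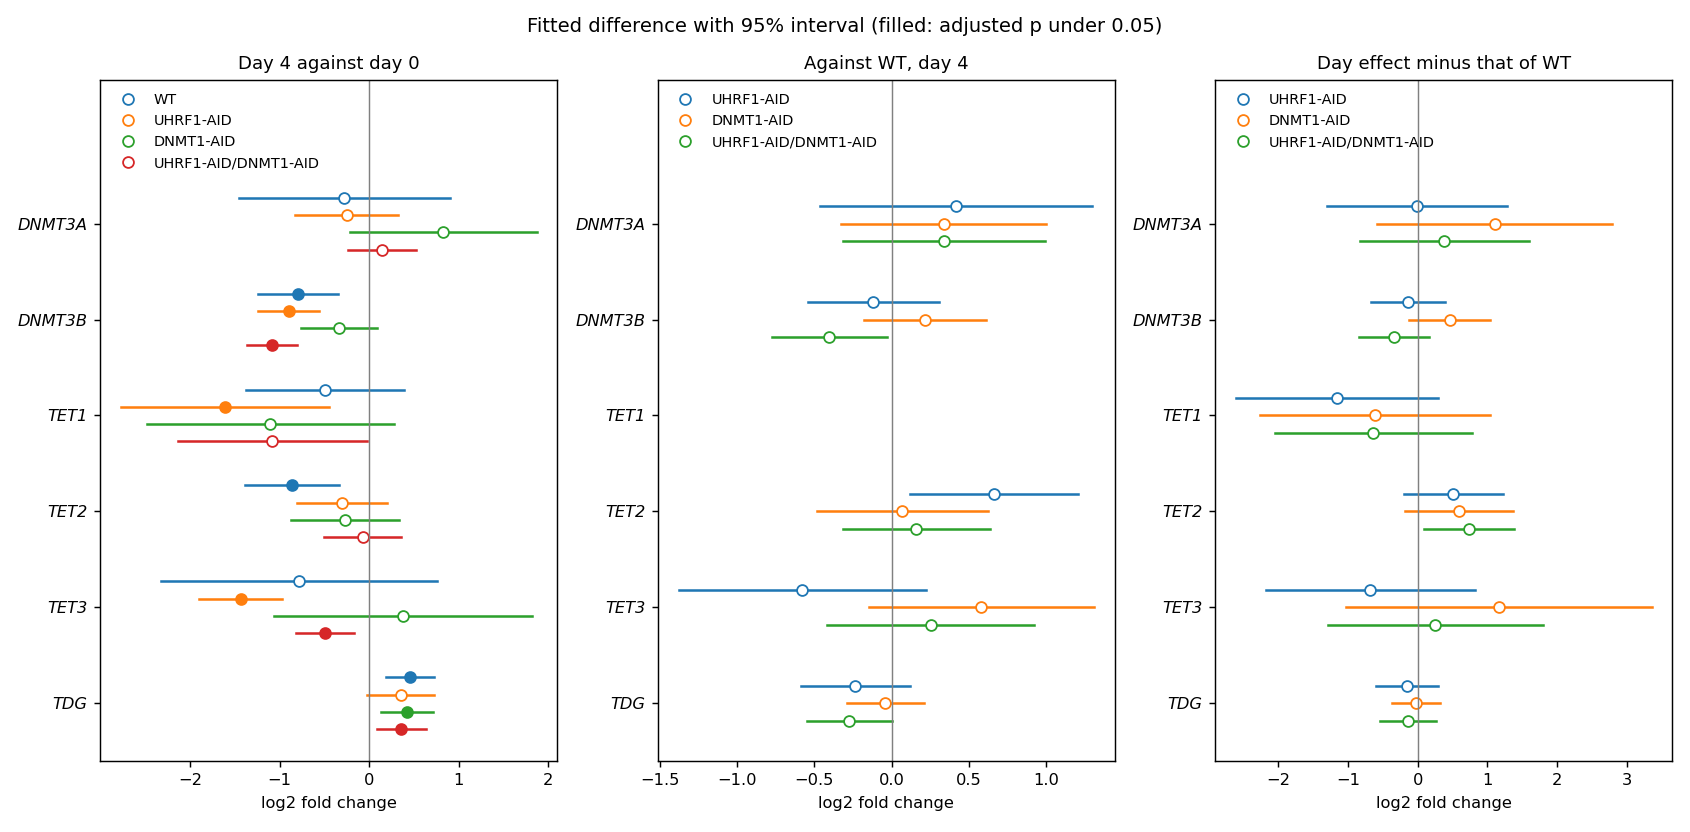
Fitted log2 fold changes with 95% intervals for day 4 against day 0 in each line, for each AID line against WT at day 4, and for the day effect of each AID line minus that of WT, with filled points at an adjusted p under 0.05. All filled points lie in the first comparison: DNMT3B, TET1, TET2 and TET3 to the left of 0 and TDG to the right, and TET1 was not tested against WT at day 4.

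Before auxin, none of the 6 genes passed against WT in edgeR's test. In UHRF1-AID cells 0% of all genes tested changed, with 512 genes at an unadjusted p under 0.05 and 11 by DESeq2. In DNMT1-AID cells 0.00723% and in compound cells 3.64% changed. Unadjusted, the numbers of members were 0, 0 and 1, and DESeq2 called 0 of the 6 in each. TET2 in compound cells was that 1, at -0.63 (95% interval -1.15 to -0.10, adjusted p = 0.172). Without WT replicate 3 it was -0.81 (adjusted p = 0.0042), and TET3 passed too (-0.47, adjusted p = 0.022). For DNMT3B the day 0 differences were 0.02, -0.27 and -0.11 in UHRF1-AID, DNMT1-AID and compound cells, and for TDG -0.09, -0.03 and -0.18.

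The partners of the 6 enzymes were followed in lists named for their roles, chosen with earlier results of these data known. Of the 12 partners of de novo methylation, among them HELLS and CDCA7 of a nucleosome remodelling complex and the histone methyltransferases NSD1, NSD2, NSD3 and SETD2, 11 were tested. Between day 0 and day 4, 6 fell in WT, 6 in DNMT1-AID, 9 in UHRF1-AID and 11 in compound cells, and none rose, beside 35.6%, 40.4%, 49.4% and 67.8% of all genes tested that changed. Their median log2 fold changes were -0.95, -0.58, -0.86 and -1.15 in the same order. Against WT at day 4, 1 fell in each single line and 4 in compound cells, and none rose. In UHRF1-AID, DNMT1-AID and compound cells 17.4%, 7.95% and 38.2% of all genes tested changed, so these counts are near the share of all genes. CDCA7 fell in all 3, by 0.96 (SE 0.150, adjusted p = 0.0027), 0.53 (SE 0.122, adjusted p = 0.016) and 1.33 (SE 0.127, adjusted p = 6.2e-08) on the log2 scale. Its levels at day 4 were 40.3 ± 4.52 CPM in WT, 27.9 ± 1.58 in DNMT1-AID, 20.2 ± 2.36 in UHRF1-AID and 16.0 ± 0.60 in compound cells (SD, n = 3), and those at day 0 lay between 63.8 and 108 CPM.

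On the TET side, 13 names of regulators and of enzymes of 2-oxoglutarate metabolism, the cosubstrate of the TETs, matched 11 genes, of which 9 or 10 were tested. None changed against WT at day 4 in UHRF1-AID or DNMT1-AID cells, while in compound cells 2 rose and 3 fell, against 17.4%, 7.95% and 38.2% of all genes tested. OGT, an O-GlcNAc transferase that binds TET proteins, rose in compound cells by 1.498 (SE 0.096, adjusted p = 1.3e-10), to 153 ± 10.4 CPM against 54.2 ± 1.89 in WT (SD, n = 3). It was already higher than WT in compound cells at day 0, by 0.79 (adjusted p = 0.012). In UHRF1-AID cells at day 4 OGT spread from 56.4 to 149 CPM, and its log2 fold change of 0.75 did not pass (adjusted p = 0.210).

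Downstream of TET and TDG, 15 of 17 genes of base excision repair and hydroxymethylcytosine binding were tested. Against WT at day 4, 3 fell in UHRF1-AID and 2 in DNMT1-AID cells, and in compound cells 6 fell and 1 rose, also near the 17.4%, 7.95% and 38.2% of all genes. UNG, the uracil glycosylase, fell by 0.64 in UHRF1-AID (SE 0.120, adjusted p = 0.0066) and by 0.65 in compound cells (SE 0.097, adjusted p = 2.4e-05), with -0.26 in DNMT1-AID cells (adjusted p = 0.120). The endonuclease APEX1 fell by 0.38 in UHRF1-AID (adjusted p = 0.030) and 0.52 in compound cells (adjusted p = 0.00019). The glycosylase NEIL2 fell by 0.48, 0.36 and 0.58 (adjusted p = 0.046, 0.043 and 8.5e-05), and PARP1, a sensor of strand breaks, fell by 0.41 in DNMT1-AID (adjusted p = 0.021) and 0.34 in compound cells (adjusted p = 0.0084). Of the 10 proliferation genes, 8 also fell against WT at day 4 in compound cells and 4 in each single line, and their part in these changes was not tested.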

How the data were processed

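RNA was sequenced as paired ends from libraries of 24 HCT116 samples. According to the study's methods the authors used Trimmomatic for trimming, STAR for alignment to hg38 and featureCounts for counting. What was deposited is 1 table of raw gene counts per library, without normalization. The strand setting and the treatment of reads with several alignments are not given in the sources used here, so reads of overlapping and near-identical genes cannot be told apart. Of the 58735 Ensembl genes, 58207 matched a symbol. The 92 spike-in sequences (0.891% to 1.65% of the counts in 9 libraries, 0 in 15) entered neither library sizes nor tests.

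Tests used edgeR 4.0.16 under R 4.3.3 (filterByExpr, TMM, robust quasi-likelihood fit of the groups compared, Benjamini-Hochberg adjustment over all genes tested). A gene counts as changed at an adjusted p under 0.05. The 14 comparisons were day 4 against day 0 in 4 lines, 3 AID lines against WT at each day, 3 differences of day effects, and UHRF1-AID against DNMT1-AID at day 4. The length trend is the Spearman rho, across genes with a mean of at least 1 CPM, of a library's log2(CPM + 1) minus the mean of all libraries with exon length. For likeness, the 3 genes with the highest Pearson r were named among genes with a mean of at least 5 CPM, with no test. The 6 genes and all lists were chosen with earlier results of these data known. The rule for other names took the 3 partner genes with the smallest p in each line against WT at day 4, the tagged genes, DNMT3L and proliferation markers.

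Alternatives were DESeq2 1.42.0, a block for the replicate number, RLE scaling, offsets for the length trend, 1 fit of all 24 libraries, no filter or a filter of 10 counts in every library, 2 other thresholds, and each library left out in turn. Leaving out together the day 0 libraries of negative length trend was chosen after seeing the data. Whether same-numbered libraries are paired was checked by correlating their deviations from the group means across genes. All 3 were over 0.1 in UHRF1-AID and in compound cells between day 0 and day 4, where the fit with the block changed no call. Over the 11 comparisons checked they lay between -0.811 and 0.443. No 2 replicates of a group agreed within sampling noise (24 pairs, chi-square over its degrees of freedom 3.52 to 59.2).

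The edgeR fit was tested on simulated counts modelled on UHRF1-AID against WT at day 4, with 200 of 13937 genes changed. It recovered 82% of changes of 1 and 100% of changes of 2 on the log2 scale, with 11 unchanged genes called. The simulated difference of day effects recovered 42% and 97% among 14505 genes. Both simulations gave every gene the same dispersion, without a length trend or folder effect, and changed only genes above a minimum mean count. For the 6 genes themselves, recovery was not tested in either fit, so these shares are not their own. In the measured comparison of UHRF1-AID with WT at day 4 their SE ranged from 0.159 (TDG) to 0.388 (DNMT3A). It was 0.356 for TET3, and TET1 was filtered out. Promoter windows are from RefSeq, with start entries for all 6 genes, although that of DNMT3B lies within the gene. Figures were drawn with Python 3.11.15 and matplotlib 3.10.9.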

Additional observations from a re-analysis of the deposited data

How the results depend on the processing

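Of 231 recounts of the changed members under other settings, 202 were within 1.5 times the count reported. Most recounts belong to comparisons with a count of 0, where 0 again counts as within and a stricter threshold cannot raise it. The share within 1.5 times therefore does not measure how stable the calls are. Of 143 recomputed log2 fold changes, 112 kept their direction and their side of the threshold, 31 lost the threshold and none changed sign. The rest of the recounts are given here, and where no value shows a cause, the cause was not tested. In WT cells between day 0 and day 4, 3 members changed, against 1 with the replicate number as a block (DNMT3B, with TET2 at -0.84 and TDG at 0.45, adjusted p = 0.068 and 0.082), 0 at an absolute log2 fold change over 1, 0 at an adjusted p under 0.01, and 0 to 3 without 1 library. In DNMT1-AID cells 1 changed, against 2 with no filter, 0 at either stricter threshold, 0 without the day 0 libraries of negative length trend and 0 to 3 without 1 library, and with the block the call passed from TDG (adjusted p = 0.065) to DNMT3A (adjusted p = 0.041). In compound cells 3 changed, against 1 at an absolute log2 fold change over 1. In UHRF1-AID cells the count of 3 was 2 to 3 and in compound cells 2 to 4 without 1 library. Against WT at day 4, the count of 0 became 1 in UHRF1-AID cells with all 24 libraries in 1 fit, 0 to 2 in DNMT1-AID and 0 to 2 in compound cells without 1 library. Against WT at day 0 it was 0 to 2 in compound cells without 1 library. For the differences of day effects it was 1 with no filter in DNMT1-AID (TET3) and 0 to 1 without 1 library in compound cells. Between UHRF1-AID and DNMT1-AID cells at day 4 the count of 1 became 0 with all 24 libraries in 1 fit, 0 at an adjusted p under 0.01, and 0 to 1 without 1 library. Outside UHRF1-AID and compound cells between day 0 and day 4, the correlations of same-numbered libraries were not all over 0.1. That check cannot exclude that such libraries are paired, and the labels do not tell. The block changed no other count of members than that in WT cells. TET1, with 1 to 31 reads per library, and DNMT3A and TET3, whose intervals in WT and DNMT1-AID cells span over 2 on the log2 scale, are the genes that depth and spread limit most.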
